A study of Mus musculus with 5 samples.

Results

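The 7 genes described here make up the core of MHC class II antigen presentation in the mouse: H2-Aa, H2-Ab1, H2-Eb1, H2-DMa, H2-DMb1, Cd74 and Ciita. They were taken by gene symbol from a table of 52143 genes, each symbol matching 1 row. Of the 7, 4 passed the filter for testing, a level of at least 1 TPM (transcript abundance corrected for length and scaled to the sample's total) in at least 2 samples, as did 10338 genes in all. H2-DMa, H2-DMb1 and Ciita did not pass it, and their values are given without counting them among the genes tested.

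The samples were bulk RNA from colon tumors of 5 female mice, 2 Control (replicates 1 and 4) and 3 SIGLEC12 (replicates 2, 3 and 4). Control mice carried Villin1-Cre-ERT alone, a tamoxifen-inducible Cre recombinase driven by the promoter of villin, and were littermates of the SIGLEC12 mice. SIGLEC12 mice carried the same Cre with 1 copy of human SIGLEC12 knocked in at ROSA26 behind a CAG promoter and a floxed EGFP stop cassette. The knock-in is thus meant to be expressed in intestinal epithelium, not in the immune or stromal cells of the tumor. All 5 mice were 8 weeks old at the start and received tamoxifen (10 mg/ml) for 5 days, then 1 injection of the carcinogen azoxymethane (10 mg/kg) and repeated cycles of 5 days of 2.0% dextran sodium sulfate, which injures the colon lining, each followed by 14 days of recovery. Tumors were taken on day 87. Although the series text names 3 mice per group, only these 2 Control mice were used here. The strain was not given in the sources used here. The level of the human transgene, which would check the group names, was not analysed here.

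MHC class II molecules carry peptides from endocytosed proteins to the cell surface for CD4+ T cells. An alpha and a beta chain pair in the endoplasmic reticulum with the invariant chain (Cd74), which fills the groove and steers the complex to endosomes. There Cd74 is trimmed to the CLIP peptide, and H2-DM, itself a pair of chains, exchanges CLIP for antigen. Ciita, the class II transactivator, is the master switch of these genes. It is active in dendritic cells, macrophages and B cells, and is induced by interferon-gamma in other cells, colon epithelium among them.

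The genes lie in few places. On GRCm38 with GENCODE M21, H2-DMa spans chromosome 17 from 34119541 to 34139101 (plus strand), H2-DMb1 from 34153072 to 34160230 (plus), H2-Ab1 from 34257689 to 34269419 (plus), H2-Aa from 34282744 to 34287823 (minus) and H2-Eb1 from 34305867 to 34316674 (plus). Ciita spans chromosome 16 from 10480059 to 10528418 on the plus strand. The identifiers of the classical chains and of Cd74 in the table are ENSMUSG00000036594 (H2-Aa), ENSMUSG00000073421 (H2-Ab1), ENSMUSG00000060586 (H2-Eb1) and ENSMUSG00000024610 (Cd74). The others are ENSMUSG00000037649 (H2-DMa), ENSMUSG00000079547 (H2-DMb1) and ENSMUSG00000022504 (Ciita).

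Class II genes are known to share a promoter module, an X box bound by RFX proteins followed by a Y box, a reversed CCAAT sequence bound by NF-Y, on which Ciita is assembled without binding DNA itself. The module is shown for 1 chain of each classical pair, and its part in the levels across these tumors was not tested. The sequences are RefSeq promoter windows on GRCm38.p6, read 5′ to 3′ on the gene's own strand, with the letters GNAACT of the X box and TGATTGG of the Y box in capitals. The first is H2-Aa at chr17:34287852-34287919 (minus strand) and the other is H2-Eb1 at chr17:34305761-34305827 (plus strand), both just upstream of the first exon.
H2-Aa: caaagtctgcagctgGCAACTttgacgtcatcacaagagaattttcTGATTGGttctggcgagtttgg
H2-Eb1: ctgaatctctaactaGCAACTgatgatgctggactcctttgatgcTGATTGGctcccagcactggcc
The X letters began 81 bases before the listed start site in H2-Aa and 91 bases before it in H2-Eb1, with 25 and 24 bases between the capitals. The same pair, with 25 bases between, was found 94 bases before the listed start site of H2-DMb1 and in neither window listed for H2-DMa. The listed H2-DMb1 site lies 119 bases inside the annotated gene, and its pair lay within an annotated exon. The sites listed for H2-DMa lie 3291 and 5977 bases inside that gene, so the promoter at its annotated 5′ end was not searched. A search of both strands of the 250 bases upstream, with 10 to 40 bases between the motifs, found the pair in 3 of the 4 members that have an entry and in 76 of 32851 promoter windows (0.231%). GNAACT alone stood in 37.3% of windows, TGATTGG alone in 7.23% and its core ATTGG, which overlaps it, in 33.9%. The motifs were chosen after these sequences were seen, and a match of letters is a description, not a shown binding site.

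The depth of the libraries is unknown from TPM values. Between 7947 and 9532 genes reached 1 TPM in the Control tumors and between 9837 and 10090 in the SIGLEC12 tumors. Protein-coding genes held 5.70% and 6.74% of all TPM in Control replicates 1 and 4, and 8.75% to 9.72% in the SIGLEC12 tumors, and the median gene tested was 0.38 higher in SIGLEC12 on the log2(TPM + 1) scale. With the protein-coding totals of the samples made equal (protein-coding rescaling) that median was 0.01. In limma, 33.4% of the 10338 genes tested were higher in SIGLEC12 at an unadjusted p under 0.05 and 0.909% lower, and 0% passed an adjusted p under 0.05 with a 2-fold change. Rescaling turned these 3449 higher and 94 lower genes into 460 and 652.

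Across all 7 class II genes SIGLEC12 replicate 2 had the highest level and SIGLEC12 replicate 4 the lowest, so the tumors of 1 genotype spanned the whole range and both Control tumors lay inside it. No member was called different between the groups. In bulk RNA, fewer cells of a type and less RNA per cell cannot be told apart.

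The classical I-A molecule is made of the chains encoded by H2-Aa (alpha) and H2-Ab1 (beta). H2-Aa stood at 3.34 and 3.63 TPM in Control replicates 1 and 4 and at 18.0, 6.25 and 1.93 TPM in SIGLEC12 replicates 2, 3 and 4. H2-Ab1 stood at 2.96 and 3.95 TPM in the same Control tumors and at 19.1, 7.35 and 2.49 TPM in the SIGLEC12 tumors. For both chains the Control tumors lay close together, with 2 SIGLEC12 tumors above them and 1 below, so the groups overlapped. For H2-Aa, log2(TPM + 1) averaged 2.16 ± 0.07 in Control (SD, n = 2) and 2.89 ± 1.35 in SIGLEC12 (SD, n = 3), giving a difference of 0.72 with an SE of 0.70 and a 95% interval from -0.97 to 2.41 (limma, adjusted p = 0.456). For H2-Ab1 the means were 2.15 ± 0.23 and 3.06 ± 1.26, a difference of 0.92 with an SE of 0.67 and an interval from -0.68 to 2.52 (limma, adjusted p = 0.328). These intervals hold both no change and a more than 2-fold rise.

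H2-Eb1 encodes the beta chain of the second classical molecule, I-E. Its level was 2.34 and 2.81 TPM in Control replicates 1 and 4 and 11.9, 4.04 and 1.38 TPM in SIGLEC12 replicates 2, 3 and 4, the same arrangement of tumors as for I-A. The group means on the log2(TPM + 1) scale were 1.83 ± 0.13 and 2.42 ± 1.22, a difference of 0.59 with an SE of 0.64 and an interval from -0.95 to 2.13 (limma, adjusted p = 0.499). Some laboratory strains, C57BL/6 among them, make no I-E alpha chain and so no surface I-E. The row named H2-Ea-ps, the alpha-chain gene as annotated on that strain's genome, was listed at 0 in all 5 samples.

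Cd74, the invariant chain, was the most abundant member in every tumor. It stood at 8.68 and 14.99 TPM in Control replicates 1 and 4 and at 64.4, 19.6 and 5.42 TPM in SIGLEC12 replicates 2, 3 and 4. Its range of 11.9-fold between the highest and lowest tumor was the widest of the 7, against 6.75-fold for H2-DMa, the narrowest. The mean of log2(TPM + 1) was 3.64 ± 0.51 in Control and 4.36 ± 1.67 in SIGLEC12, a difference of 0.72 with an SE of 0.89 and an interval from -1.42 to 2.86 (limma, adjusted p = 0.549). SIGLEC12 replicate 2 was 3.29 times SIGLEC12 replicate 3, the next highest tumor.

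H2-DMa and H2-DMb1 encode the chains of the peptide exchanger H2-DM and were far lower than the classical chains. H2-DMa was at 0.324 and 0.435 TPM in the Control tumors and at 2.09, 0.653 and 0.309 TPM in SIGLEC12 replicates 2, 3 and 4. H2-DMb1 was at 0.304 and 0.627 TPM in Control and at 2.48, 0.988 and 0.285 TPM in SIGLEC12. Only SIGLEC12 replicate 2 reached 1 TPM for either chain, which is why neither passed the filter. With no filter, limma gave a difference of 0.45 with an SE of 0.39 for H2-DMa (adjusted p = 0.656) and of 0.51 with an SE of 0.45 for H2-DMb1 (adjusted p = 0.657). H2-DMb1 is the member least separable by sequence, with 31.4% of its 31-base words shared with other genes, all of them with its neighbour H2-DMb2. For the other 6 members that share was at most 1.41%. Of the words of H2-DMa, 9.23% also occur on the opposite strand of other transcripts, and it overlaps Brd2 on that strand. Whether the counting used strand was not stated.

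Ciita, the transactivator, was the lowest member. It stood at 0.0771 and 0.108 TPM in Control replicates 1 and 4 and at 0.375, 0.128 and 0.0477 TPM in SIGLEC12 replicates 2, 3 and 4. These levels are low, and at an unknown depth the gaps between the lower 4 tumors cannot be set against counting error. The arrangement was again that of its targets, with SIGLEC12 replicate 2 at the top, 2.94 times the next tumor. With no filter, the difference on the log2(TPM + 1) scale was 0.11 with an SE of 0.12 (limma, adjusted p = 0.714), a scale that compresses so low a gene.

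Exact two-sided permutation tests of the group labels gave p from 0.5 (H2-Ab1 and H2-DMb1) to 0.8 (Ciita), and this design cannot go below p = 0.1. The median log2 difference was 0.59 over the 7 members and 0.72 over the 4 tested, beside 0.38 over all genes tested. At an unadjusted p under 0.05, 0 of the 4 tested members were higher, against a background of 33.4%. The groups did not overlap, with SIGLEC12 higher, for 0 of the 7 members, 4 of them tested, and for 54.1% of all genes tested. Protein-coding rescaling left 1616 of the 10338 genes tested without overlap and higher in SIGLEC12. The share higher at an unadjusted p under 0.05 in limma was then 4.45%, with 0 of the 4 tested members. After rescaling to the protein-coding total the members' differences ran from 0.05 for Ciita to 0.48 for H2-Ab1.

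**Figure D1:**
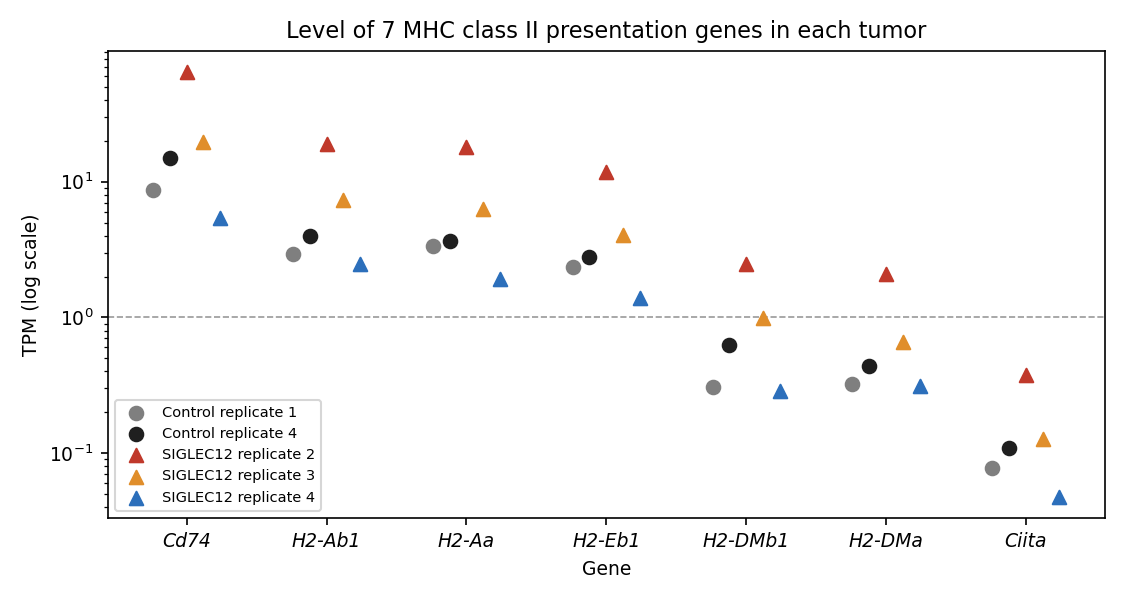
Level of the 7 class II presentation genes in each of the 5 tumors, in TPM on a log axis, with 1 point and 1 color per tumor. The groups are told apart by marker shape, circles for Control and triangles for SIGLEC12. SIGLEC12 replicate 2 is the highest point and SIGLEC12 replicate 4 the lowest for every gene, from Cd74 at 64.4 and 5.42 TPM down to Ciita at 0.375 and 0.0477 TPM.

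The order of the 5 tumors was the same for all 7 members: SIGLEC12 replicate 2, then SIGLEC12 replicate 3, Control replicate 4, Control replicate 1 and SIGLEC12 replicate 4. Among all genes tested this order was found for 31 (0.3%), the 4 tested members included. SIGLEC12 replicate 2 was the highest sample for 22.8% of genes tested and SIGLEC12 replicate 4 the lowest for 4.12%. SIGLEC12 replicate 2 lay at least 2-fold above each other tumor for 7 of 7 members and for 0.58% of genes tested. For the members it was between 2.52-fold (H2-DMb1) and 3.29-fold (Cd74) above the next. Of the 7, H2-DMa, H2-DMb1 and Ciita are below the filter that the genes tested passed. After rescaling to the protein-coding total the full order held for 5 of 7 members and 1.08% of genes tested, and with median-ratio size factors for 4 of 7 and 0.890%. The top and bottom tumors were the same for 7 of 7 members under both of these scalings. Over all genes tested SIGLEC12 replicate 2 was then highest for 15.7% and 12.1%, and SIGLEC12 replicate 4 lowest for 17.2% and 17.6%. The order was looked for after the members' values had been seen, and the members come from the same 5 libraries, so their agreement is not repeated evidence about the groups.

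The sign of the group difference rested on 1 tumor for 3 members. Without SIGLEC12 replicate 2, the log2 differences were 0.04 for H2-Aa, 0.29 for H2-Ab1, -0.04 for H2-Eb1, -0.11 for Cd74, 0.09 for H2-DMa, 0.13 for H2-DMb1 and -0.01 for Ciita. Of these 7, 4 stayed above 0 and 3 fell below it. Without SIGLEC12 replicate 4, the differences were 1.39, 1.55, 1.18 and 1.56 for H2-Aa, H2-Ab1, H2-Eb1 and Cd74. All 4 were then higher at an unadjusted p under 0.05 in limma, beside 22.8% of all genes tested. Their adjusted p ran from 0.190 to 0.200. Without Control replicate 1, which had the lowest protein-coding share, they were 0.67, 0.76, 0.50 and 0.36.

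**Figure D2:**
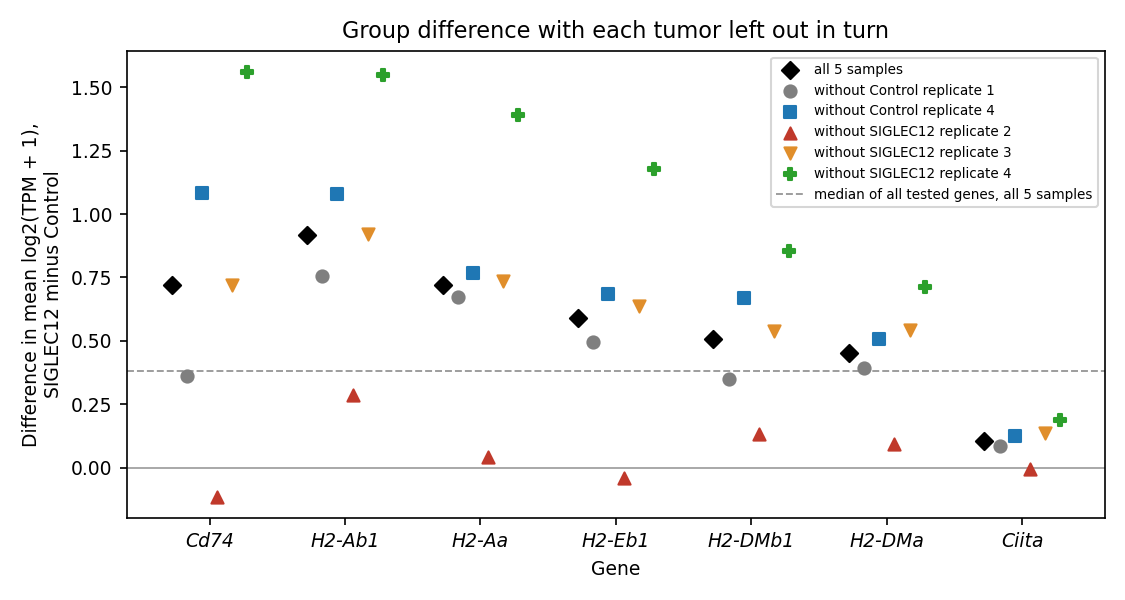
Difference between SIGLEC12 and Control in mean log2(TPM + 1) for each of the 7 genes, with all 5 tumors and with each tumor left out in turn. Leaving out SIGLEC12 replicate 2 brings the differences to between -0.11 and 0.29, and leaving out SIGLEC12 replicate 4 raises H2-Aa, H2-Ab1, H2-Eb1 and Cd74 to between 1.18 and 1.56.

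Levels relative to Cd74 within a tumor do not depend on how that tumor's TPM were scaled. On the log2 TPM scale H2-Aa minus Cd74 was -1.38 and -2.05 in Control replicates 1 and 4, and -1.84, -1.65 and -1.49 in SIGLEC12 replicates 2, 3 and 4. The range of this value over the 5 tumors was 0.67, whereas the level of H2-Aa itself ranged over 3.22. For the other members the range relative to Cd74 was 0.80 (H2-Ab1), 0.55 (H2-Eb1), 0.98 (H2-DMa), 0.58 (H2-DMb1) and 0.61 (Ciita), against ranges of their own level from 2.75 to 3.13. The proportions among the genes thus varied much less over the tumors than their levels did. As a share of Cd74's TPM, H2-Aa ran from 24.2% to 38.5%, H2-Ab1 from 26.4% to 45.9% and H2-Eb1 from 18.5% to 26.9%. H2-DMa ran from 2.90% to 5.71%, H2-DMb1 from 3.50% to 5.25% and Ciita from 0.582% to 0.888%.

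The levels relative to Cd74 overlapped between the groups for all 6 other members. Relative to Cd74, the SIGLEC12 mean minus the Control mean was 0.05 for H2-Aa, 0.31 for H2-Ab1, -0.07 for H2-Eb1, 0.26 for H2-DMa, 0.29 for H2-DMb1 and -0.21 for Ciita on the log2 scale. In exact permutation tests over these 6 comparisons, p ran from 0.3 to 0.9 and Benjamini-Hochberg adjusted p from 0.8 to 0.9. The I-A chains were near parity, with H2-Ab1 at 0.885 and 1.09 times H2-Aa in Control replicates 1 and 4 and at 1.06, 1.18 and 1.29 times in SIGLEC12 replicates 2, 3 and 4. The ratio of H2-Eb1 to H2-Ab1 was 0.791 and 0.710 in Control and 0.623, 0.550 and 0.555 in SIGLEC12, without overlap. That ratio was singled out after its values were seen and gets no test. With the mean of H2-Aa, H2-Ab1 and H2-Eb1 as the reference in place of Cd74, the groups did not overlap for Ciita (-5.21 and -4.99 in Control, -5.42, -5.48 and -5.30 in SIGLEC12), H2-Eb1 and H2-Ab1. The differences were -0.30 for Ciita, -0.17 for H2-Eb1 and 0.21 for H2-Ab1, with exact permutation p of 0.1, 0.1 and 0.2 and Benjamini-Hochberg adjusted p of 0.35, 0.35 and 0.467 over 7 comparisons. H2-Eb1 and H2-Ab1 are themselves part of that reference. The H2-DM chains had H2-DMb1 to H2-DMa ratios of 0.937 and 1.44 in Control and of 1.19, 1.51 and 0.921 in SIGLEC12, which overlapped.

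**Figure D3:**
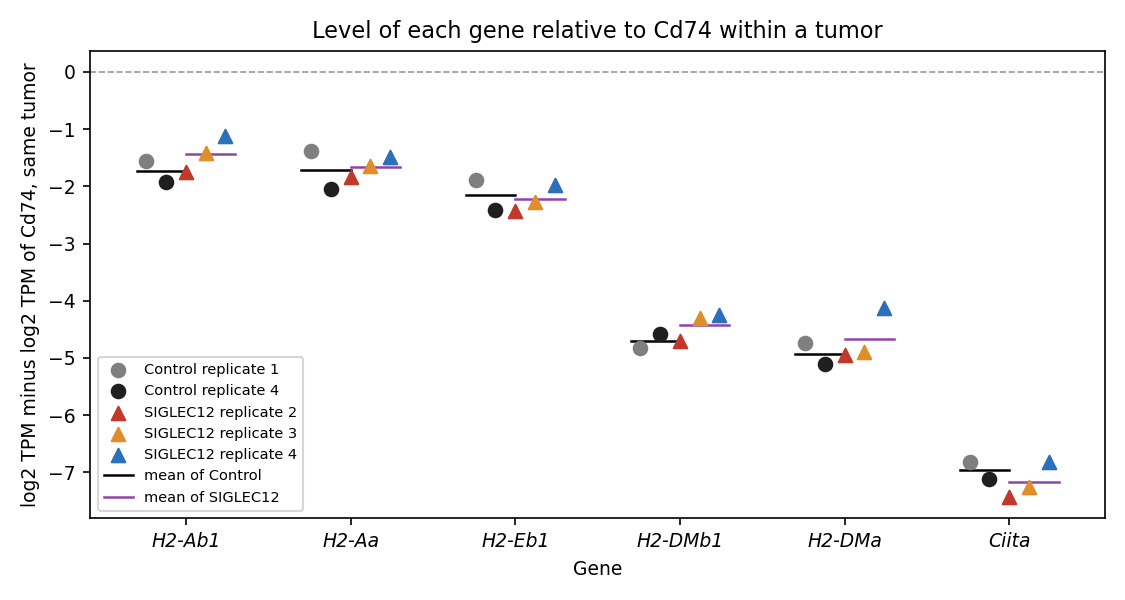
Level of the 6 other members relative to Cd74 in the same tumor, as the difference in log2 TPM, with 1 point per tumor. Each gene stays within a band between 0.55 and 0.98 wide, and the Control and SIGLEC12 points overlap. The bands of the classical chains overlap each other, as do those of H2-DMa and H2-DMb1.

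Class II molecules need proteases and a reductase to prepare peptides and to trim Cd74. Of 13 pathway partners in the table, 7 were tested, 6 of them were higher in SIGLEC12 at an unadjusted p under 0.05 beside the 33.4% of all genes, and 0 passed an adjusted p under 0.05. After protein-coding rescaling 1 of the 7 was higher at an unadjusted p under 0.05, beside 4.45% of all genes, and again 0 passed an adjusted p. Without SIGLEC12 replicate 2 the count was 3, beside 20.5% of all genes, and without SIGLEC12 replicate 4 it was 6, beside 22.8%. The median log2 difference of the 7 was 0.80, and 0.61 without Control replicate 1, beside 0.38 and 0.26 over all genes tested. Lgmn, an endosomal protease that starts the trimming of Cd74, was at 1.62 and 2.07 TPM in Control and at 5.99, 5.30 and 3.95 TPM in SIGLEC12 replicates 2, 3 and 4, without overlap. Its log2 difference was 1.09 with an SE of 0.21 (limma, adjusted p = 0.097), and 0.69 after rescaling. Ctss, the cathepsin that finishes the trimming, was at 7.98 and 15.5 TPM in Control and at 27.8, 20.9 and 14.4 TPM in SIGLEC12, which overlapped (difference 0.81, SE 0.37, limma adjusted p = 0.169). Ifi30, the thiol reductase of endosomes, was as deposited highest in SIGLEC12 replicate 4 at 16.4 TPM, the tumor lowest in every class II member. SIGLEC12 replicate 2 was close at 15.3 TPM. Protein-coding rescaling divides replicate 4 by 1.22 and replicate 2 by 1.11, so their order depends on the scaling. The highest value of H2-Oa was 0.0428 TPM, of H2-Ob 0.0138 TPM and of H2-Eb2 0.0144 TPM, and H2-DMb2 between 0.0296 and 0.226 TPM.

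Of 16 regulators of class II genes, 13 were tested and 4 (Ifngr1, Ifngr2, Irf8 and Nfyb) were higher at an unadjusted p under 0.05, beside 33.4% of all genes, with 0 at an adjusted p under 0.05. After rescaling the count at an unadjusted p under 0.05 was 1, beside 4.45% of all genes. Without SIGLEC12 replicate 2 it was also 1, beside 20.5%. Ifngr2, a chain of the interferon-gamma receptor, was at 2.88 and 6.36 TPM in Control and at 11.1, 14.9 and 9.73 TPM in SIGLEC12 replicates 2, 3 and 4 (difference 1.25, SE 0.33, limma adjusted p = 0.097). Irf1, an interferon-induced factor that acts on the Ciita promoter, was at 2.87 and 6.57 TPM in Control and at 10.8, 8.21 and 5.84 TPM in SIGLEC12 (difference 0.74, adjusted p = 0.182 in limma). Rfx5, which binds the X box, was at 0.71 and 0.97 TPM in Control and at 1.11, 0.98 and 0.62 TPM in SIGLEC12. Rfx5 did not pass the filter. As deposited its values put the 5 tumors in the same order as the class II genes, but with a much narrower spread.

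Class I presentation, which shows peptides from inside the cell to CD8+ T cells, had 12 genes in the table, 11 of them tested. At an unadjusted p under 0.05, 4 were higher (H2-D1, Calr, Pdia3 and Erap1), 1 after rescaling, 3 without SIGLEC12 replicate 2 and 2 without Control replicate 1, and 0 passed an adjusted p under 0.05. Over all genes tested the share at an unadjusted p under 0.05 was 33.4%, and 4.45% after rescaling, 20.5% without SIGLEC12 replicate 2 and 13.9% without Control replicate 1. SIGLEC12 replicate 2 was highest for 10 of the 12. B2m, the light chain of class I, was at 18.7 and 39.4 TPM in Control replicates 1 and 4 and at 123.5, 56.0 and 26.4 TPM in SIGLEC12 replicates 2, 3 and 4. In B2m, Tap1, a peptide transporter, and Psmb8, an immunoproteasome subunit, that tumor exceeded each other by 2.21, 2.33 and 2.38 times. At the other end, SIGLEC12 replicate 4 as deposited was below Control replicate 4 for 8 of the 12 class I genes. It was below Control replicate 1 for 0 of the 12. Under protein-coding rescaling it was the lowest tumor for 3 of the 4 class I genes Psmb9, Tap1, Psmb8 and Tap2, against 0 as deposited. The count of 0 of the 12 thus depends on the scaling. The class I sum in SIGLEC12 replicate 4 was 284 TPM, of which 175 came from the chaperones Calr and Pdia3, against 134 and 188 in Control replicates 1 and 4. Without these 2 genes it was 109 TPM, between Control replicate 1 (57.6) and Control replicate 4 (117.5), while the class II sum of 11.9 was below both (18.0 and 26.5). The class II sum per class I sum without the chaperones was 0.313 and 0.226 in Control, and 0.405, 0.238 and 0.109 in SIGLEC12 replicates 2, 3 and 4. It was highest and lowest in the same tumors as the class II genes.

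Between the first and the last class II member on chromosome 17 (34119541 to 34316674, 197134 bases) the table has 15 genes, of which 5 are members. Of the others 4 were tested, Psmb9, Tap1, Psmb8 and Tap2, all of them genes of class I presentation. All 4 were highest in SIGLEC12 replicate 2. As deposited, 0 of 4 had the members' full order, but 2 (Tap1 and Psmb8) had it after protein-coding rescaling and 3 (Tap1, Psmb8 and Tap2) with median-ratio size factors, so that difference from the members depends on the scaling.

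Among 2846 tested genes with a mean of at least 5 TPM that are not members, the profile nearest the mean of the 4 tested members was that of B2m, by a root mean square difference of 0.32 on the centred log2(TPM + 1) scale over the 5 samples. The next were Clca1, secreted by goblet cells (0.44), Selenop, the selenium transport protein (0.48), Actg2, a smooth muscle actin (0.49), and Mptx1, a mucosal pentraxin (0.50). The median over all candidates was 0.95, which is also the size of the members' own profile. Clca1 was at 23.1 and 51.6 TPM in Control and at 78.4, 40.5 and 17.8 TPM in SIGLEC12 replicates 2, 3 and 4. Of these genes Clca1, like the class II members, had SIGLEC12 replicate 4 as its lowest tumor, as did Actg2.

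Markers of the cells that could carry class II were then read in the same tumors. None of the 7 B cell markers, among them Cd79a and Ms4a1, reached 1 TPM in any sample, the highest value being 0.101 TPM, and none of 7 T cell markers did (highest 0.539 TPM). Of 9 dendritic cell markers 8 stayed below 1 TPM throughout, the exception being Fscn1, which other cells also express. All 6 co-stimulation genes (Cd80, Cd86, Cd40, Icosl, Cd274 and Pdcd1lg2) were below 1 TPM in every sample. Low levels of such markers in bulk RNA do not show that the cells were missing.

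Macrophage markers were detected, with 9 of 12 reaching 1 TPM in some sample and 7 tested. Their sum was 14.5 and 9.06 TPM in Control replicates 1 and 4 and 29.3, 34.3 and 12.0 TPM in SIGLEC12 replicates 2, 3 and 4. The sum was highest in SIGLEC12 replicate 3, where Lyz2 and Cd14 (9.26 against 5.36 TPM in SIGLEC12 replicate 2) were high. SIGLEC12 replicate 2 was highest for 8 of the 12 genes. The mean log2(TPM + 1) of the list was slightly higher in SIGLEC12 replicate 2 (1.51) than in replicate 3 (1.43), so the top tumor depends on the measure. C1qa, a complement component made by macrophages, was at 1.63 and 0.592 TPM in Control and at 2.89, 2.62 and 0.550 TPM in SIGLEC12. Lyz2, a lysozyme, was at 4.22 and 1.61 TPM in Control and at 8.17, 13.5 and 2.56 TPM in SIGLEC12. Of the 7 tested markers 1, Cd14, was higher at an unadjusted p under 0.05, beside 33.4% of all genes, and 0 at an adjusted one. The class II sum per macrophage sum was 1.24 and 2.93 in Control and 4.04, 1.14 and 0.992 in SIGLEC12 replicates 2, 3 and 4, so it too was highest in replicate 2. The part of macrophage content in the class II levels was not tested.

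Epithelial markers, which check the tissue, were high in sum in all 5 tumors and moved otherwise. Cdx2, also in the list, was below 1 TPM in every tumor but SIGLEC12 replicate 4 (3.11 TPM) and was not tested. The 10 genes summed to 309 and 902 TPM in Control replicates 1 and 4 and to 1098, 1076 and 1707 TPM in SIGLEC12 replicates 2, 3 and 4. The tumor with the highest sum of these markers, SIGLEC12 replicate 4, was the one lowest in class II, and SIGLEC12 replicate 2 was highest for 0 of the 10 genes. Of 9 tested, 5 were higher in SIGLEC12 at an unadjusted p under 0.05 beside 33.4% of all genes, 0 after rescaling beside 4.45%, 4 without SIGLEC12 replicate 2 beside 20.5% and 0 without Control replicate 1 beside 13.9%. None of the 9 passed an adjusted p under 0.05 in limma with all 5 tumors. The class II sum per epithelial sum was 0.0582 and 0.0294 in Control and 0.108, 0.0362 and 0.00695 in SIGLEC12 replicates 2, 3 and 4. The part of epithelial content in the class II levels was not tested.

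Leaving out other tumors moved these counts as well. Without SIGLEC12 replicate 4, 9 of 11 class I genes and 5 of 7 macrophage markers were higher at an unadjusted p under 0.05, against 2 of 13 regulators and 2 of 9 epithelial genes, beside 22.8% of all genes tested. Without SIGLEC12 replicate 3 the count of regulators was 2 of 13, beside 22.3% of all genes tested. Without Control replicate 4, limma gave an adjusted p under 0.05 for 2 of 7 pathway partners, 2 of 13 regulators, 3 of 11 class I genes and 7 of 9 epithelial genes, for 0 of the 4 class II genes tested, and for 15.5% of all genes tested. The Control group is then the replicate lowest in epithelial markers alone.

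**Figure D4:**
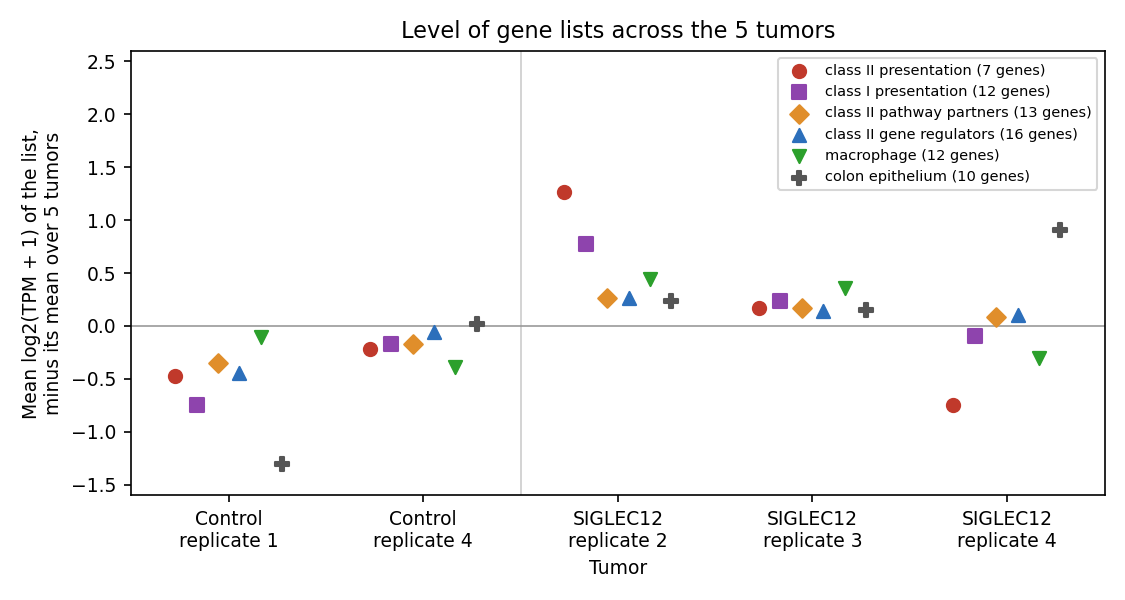
Mean log2(TPM + 1) of 6 gene lists in each of the 5 tumors, each list centred on its own mean over the tumors. The 7 class II genes span the widest range among the SIGLEC12 tumors, highest in replicate 2 and lowest in replicate 4, where the 10 epithelial genes are at their highest.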

How the data were processed

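RNA from colon tumors of 2 Control and 3 SIGLEC12 mice was analysed. The submitters' processing notes name kallisto 0.45.0 and GRCm38, whereas the study's methods name another kallisto version, a human reference and another library kit than the labels. The deposited values are log2(TPM + 1) per gene, made by the authors. TPM is relative to all annotated RNA, and whether technical replicate libraries were averaged was not stated. TPM was recovered by inverting the log2, and the totals of the columns differed by at most 2 TPM. Samples were grouped by their labels. Nothing says how many tumors of a mouse were pooled.

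Genes with at least 1 TPM in at least 2 samples were fitted in limma 3.58.1 (R 4.3.3) on log2(TPM + 1), a pseudocount of 1, with a mean-variance trend and Benjamini-Hochberg adjustment over all 10338 genes. A gene was called at a 2-fold change or more with an adjusted p under 0.05. The limma step was tested on simulated data. Of the table's gene identifiers 98.45% were found in GENCODE M21. Members and lists were chosen with earlier results of these data known. Named genes were the members, genes of the lists a sentence needed, and the 5 nearest profiles. Alternatives were a pseudocount of 0.1, no filter or 5 TPM, protein-coding rescaling, median-ratio size factors, quantile normalization, sample quality weights, another within-sample reference and leaving out each sample. The order of the samples under other scalings, the marker lists with each sample left out, and class I sums without 2 chaperones, were added after seeing the data. The H2-DMb1 promoter sequence is not reported here. RefSeq promoter windows were matched by symbol for 4 of the 7 members.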

Additional observations from a re-analysis of the deposited data

How the results depend on the processing

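With 2 and 3 tumors and unknown depth, intervals for single members are wide and low genes such as Ciita cannot be separated from counting error. No paired analysis was possible because Control and SIGLEC12 have just 1 replicate number in common. The median log2 difference over the 7 members (0.59) was 0.78 with a pseudocount of 0.1, 0.27 after protein-coding rescaling, 0.26 with median-ratio size factors and 1.07 with quality weights, and ran from 0.04 to 1.18 when each tumor was left out. Quantile normalization covered tested genes only and gave no median over the 7. Adjusted p for the 4 tested members ran from 0.190 to 0.955 over all alternatives.

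Without SIGLEC12 replicate 2 the sign turned for H2-Eb1 (-0.041, range over left-out tumors -0.04 to 1.18), Cd74 (-0.11, range -0.11 to 1.56) and Ciita (-0.0073, range -0.0073 to 0.19). Tested members higher at an unadjusted p under 0.05 numbered 0, beside 33.4% of all genes tested. They numbered 0 without SIGLEC12 replicate 2 (beside 20.5%) or 3 (beside 22.3%), and 4 without SIGLEC12 replicate 4 (beside 22.8%). Relative to Cd74, leaving out a tumor gave -0.28 to 0.39 for H2-Aa, -0.34 to 0.19 for H2-Eb1 and -0.0027 to 0.45 for H2-DMa, so their signs are not settled. Against the mean of the classical chains H2-Aa was at -0.043, and Ciita (-0.30) and H2-Eb1 (-0.17) no longer overlapped between groups (exact permutation p = 0.1, the smallest possible). The shared order of tumors held for 4 members with median-ratio size factors. The class I sum of SIGLEC12 replicate 4 minus that of Control replicate 4 turned from 96.0 to -8.82 TPM without Calr and Pdia3.

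Over all genes, 0 were called higher and 0 lower at an adjusted p under 0.05 and 2-fold, beside 3449 and 94 at an unadjusted p under 0.05 in limma. Leaving out a tumor gave 0 to 962 called higher and 0 to 97 called lower, the upper counts without Control replicate 4, where the lone Control is assumed to vary like the SIGLEC12 tumors. Genes higher at an unadjusted p under 0.05 numbered 1732 with the 5 TPM filter, 460 after protein-coding rescaling, 488 with median-ratio factors, 610 with quantile normalization and 1438 to 4416 with a tumor left out. Genes lower numbered 575 with no filter, 33 with the 5 TPM filter, 652, 679 and 527 under the same 3 scalings, and 75 to 278 with a tumor left out. The epithelial list's median ran from 0.50 to 1.75, highest without Control replicate 4, and the macrophage list's from 0.19 to 0.55. The cause of these shifts was not tested.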
